A study of Mus musculus with 29 samples.

Results

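The potassium channel genes examined here are the protein-coding genes whose mouse symbol begins with Kcn in the annotation of genome build mm9. There were 94 of them among 22225 protein-coding genes. They were followed through the peaks of chromatin immunoprecipitation with sequencing (ChIP-seq), in which a peak marks DNA recovered with a protein above the local background. Each peak was given to the gene with the nearest annotated transcription start, whatever the distance. A peak given to a Kcn gene therefore marks the nearest gene and not a shown target.

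The cells were Dox-inducible mouse embryonic stem cell lines made from the parental line A2loxCre. Doxycycline switched on a cassette holding Atoh1, Pou4f3 or Gfi1, alone or together, and in every line the cassette also held the fluorescent reporter Venus. The lines were iAtoh1 (Atoh1), iPou4f3 (Pou4f3), iG+A (Gfi1 and Atoh1), iG+P (Gfi1 and Pou4f3), iP+A (Pou4f3 and Atoh1) and iGPA (all 3). Embryoid bodies (EBs), which are floating aggregates of differentiating stem cells, received 2 µg/ml doxycycline for 48 h and were taken on day 6. A FLAG tag on Atoh1, a MYC tag on Pou4f3 and an antibody to Gfi1 itself served for the precipitations. The factors were therefore overproduced from a transgene in EB cells, and no tissue of the ear was studied. In all, 17 ChIP and 12 input libraries gave 9 lists, which are 4 for Atoh1 and 4 for Pou4f3, from each line that made the factor, and 1 for Gfi1 from iGPA. Every ChIP group had 2 libraries except Gfi1, with 1. Replicates were merged before peaks were called, so no value below has a spread between replicates, no p-value is given, and intervals cover counting error only.

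Potassium channels let potassium ions leave or enter a cell and set its resting voltage and the shape of its electrical responses. Voltage-gated channels open on depolarisation, and inward rectifiers pass current more readily into the cell than out of it. Tandem-pore channels give a steady leak, and calcium-activated channels couple the membrane to calcium entry. Silent subunits form no channel by themselves and alter those they join, and auxiliary subunits change gating or traffic. In the inner ear, Kcnma1 carries a major potassium current of hair cells, Kcnn2 takes part in efferent inhibition of outer hair cells, and Kcna10 is found in hair cells. Kcnq1 with Kcne1 secretes potassium into the endolymph, and Kcnj10 serves in generating the endocochlear potential. Atoh1, Pou4f3 and Gfi1 are transcription factors of hair cell development.

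The DNA under the strongest peaks of each kind is shown first, since the patterns of letters differ between kinds of site. Sequences are 150 bp centred on the summit, the base of highest signal, on the + strand of mm9. Capitals mark an E-box (CAGCTG or CAGATG), the core bound by Atoh1, either of 2 Pou4f patterns (ATAATTAAT with at most 1 mismatch, and ATGCATNAT or ATGAATNAT), or a Gfi1 pattern (AATCACAGC or AATCACTGC), each on either strand, in every window shown. The second Pou4f pattern was read off these very sites, so its presence in them is no finding. The first 2 sites carried Atoh1 in all 4 Atoh1 lists and tied for the highest fold enrichment among such sites in iGPA. They lie at chr11:60886448-60886597, 7.22 kb from a start of Kcnj12 and beyond the end of that gene, and at chr9:32127910-32128059, in an intron of Kcnj5. Each held 2 E-boxes and none of the other patterns.
Kcnj12, Atoh1: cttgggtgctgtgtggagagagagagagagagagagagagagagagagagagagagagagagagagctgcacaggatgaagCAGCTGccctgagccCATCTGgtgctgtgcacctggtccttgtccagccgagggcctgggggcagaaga
Kcnj5, Atoh1: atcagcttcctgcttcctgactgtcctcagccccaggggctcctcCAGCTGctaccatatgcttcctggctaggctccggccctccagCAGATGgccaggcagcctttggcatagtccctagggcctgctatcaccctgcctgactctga

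The next 2 carried Pou4f3 in all 4 Pou4f3 lists and were among the highest of their kind in iGPA. They lie at chr3:89353843-89353992 in an intron of Kcnn3 and at chr3:31767208-31767357 upstream of Kcnmb2. The Kcnn3 site also had Atoh1 and Gfi1 peaks in iGPA, and the Kcnmb2 site an Atoh1 peak (4.31). Each window held 1 E-box and 1 match to the second Pou4f pattern, and neither held the first.
Kcnn3, Pou4f3 with Atoh1 and Gfi1: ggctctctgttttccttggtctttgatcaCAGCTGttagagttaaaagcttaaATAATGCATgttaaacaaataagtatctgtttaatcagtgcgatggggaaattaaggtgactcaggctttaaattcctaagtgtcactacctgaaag
Kcnmb2, Pou4f3 with Atoh1: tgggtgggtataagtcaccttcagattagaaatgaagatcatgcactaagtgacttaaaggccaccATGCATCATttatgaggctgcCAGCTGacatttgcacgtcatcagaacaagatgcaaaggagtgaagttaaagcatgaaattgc

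The strongest site that had both Atoh1 and Pou4f3 in iGPA without Atoh1 in iAtoh1 lies at chr14:21063661-21063810, beyond the end of Kcnk16. It held 2 E-boxes and neither Pou4f pattern. The strongest site with Gfi1 and neither of the other factors in iGPA lies at chr11:60841776-60841925, in an intron of Kcnj12, and held 1 Gfi1 pattern and 1 E-box.
Kcnk16, Atoh1 and Pou4f3: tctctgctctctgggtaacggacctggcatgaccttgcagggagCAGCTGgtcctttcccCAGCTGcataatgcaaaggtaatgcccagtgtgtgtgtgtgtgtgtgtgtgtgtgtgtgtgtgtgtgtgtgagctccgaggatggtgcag
Kcnj12, Gfi1: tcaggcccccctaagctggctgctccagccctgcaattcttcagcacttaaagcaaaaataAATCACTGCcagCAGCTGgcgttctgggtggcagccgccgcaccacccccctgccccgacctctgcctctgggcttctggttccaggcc

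Strongest sites of 3 genes known from the inner ear complete the set and were chosen after their values were seen. They lie at chr14:24655201-24655350 upstream of Kcnma1, at chr3:106956783-106956932 upstream of Kcna10 and at chr7:150310298-150310447 in an intron of Kcnq1. In Kcna10 the same 9 bases match both Pou4f patterns.
Kcnma1, Atoh1: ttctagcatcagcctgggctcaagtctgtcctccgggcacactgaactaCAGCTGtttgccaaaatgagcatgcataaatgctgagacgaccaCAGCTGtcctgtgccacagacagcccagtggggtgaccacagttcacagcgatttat
Kcna10, Pou4f3: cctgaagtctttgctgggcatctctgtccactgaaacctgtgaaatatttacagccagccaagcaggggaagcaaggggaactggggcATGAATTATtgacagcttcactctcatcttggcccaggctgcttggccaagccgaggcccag
Kcnq1, Atoh1: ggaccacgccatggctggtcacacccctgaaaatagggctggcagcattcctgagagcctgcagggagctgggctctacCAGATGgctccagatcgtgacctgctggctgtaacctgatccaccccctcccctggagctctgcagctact

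Peaks lay near most Kcn genes. Of the 94, 82 (87.2%, 95% Clopper-Pearson interval 78.8 to 93.2) had a peak in at least 1 list, against 69.6% of all coding genes and 76.4% of coding genes of like length. Like length means that the other coding genes were put in 10 bins of gene span and weighted by the bins of the Kcn genes, because long genes have more room for peaks. Kcn genes had a median span of 28.1 kb, against 15.5 kb for all coding genes. They also stood further from their neighbours, and the stretch of genome nearer to a gene's starts than to any other start, its catchment, had a median of 66.5 kb against 34.4 kb. Among genes of like catchment, 78.3% had a peak. The Kcn interval lay above the like-length share and just above that of like catchment.

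By list, the share of Kcn genes with an Atoh1 peak was close to that of other genes of like length. Atoh1 peaks were near 30 Kcn genes in iAtoh1 (31.9%, against 25.5% of all coding genes and 30.2% of like length). They were near 36 in iG+A (38.3%, against 35.3% and 40.8%), 39 in iP+A (41.5%, against 32.5% and 38.4%) and 50 in iGPA (53.2%, against 42.8% and 49.6%). More Kcn genes had Atoh1 in iGPA than in the other lines, as did more genes of any kind. The iGPA list was also the longest Atoh1 list, with 26231 kept peaks against 15568 to 20504. At equal list length the Kcn shares were 31.9%, 34.0%, 39.4% and 39.4% (iAtoh1, iG+A, iP+A, iGPA). Genes of like length then had 30.2%, 33.9%, 33.6% and 37.0%.

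Pou4f3 peaks were near 47 Kcn genes in iPou4f3 (50.0%, against 41.1% of all coding genes and 48.6% of like length). The number was 60 in iG+P (63.8%, against 43.8% and 51.3%), 40 in iP+A (42.6%, against 29.8% and 36.2%) and 46 in iGPA (48.9%, against 32.1% and 39.3%). The iG+P list was also the longest Pou4f3 list, with 32632 kept peaks against 17082 to 22433. At equal list length the Kcn shares were 42.6%, 40.4%, 41.5% and 45.7% (iPou4f3, iG+P, iP+A, iGPA). Genes of like length then had 39.2%, 33.2%, 34.0% and 35.2%. Gfi1 was near 10 Kcn genes (10.6%, against 8.98% of all coding genes and 11.3% of like length). The interval of the Kcn share held the like-length share in 8 of 9 lists, the exception being iG+P (53.3 to 73.5). It held the share of genes of like catchment in 9 of 9, iG+P included (57.0%). By list, most of the gap to all coding genes was also seen in genes of like catchment. Genes of like length showed less of it in the Pou4f3 lists of iG+P, iP+A and iGPA. With a stricter −log10 p of at least 10, the Kcn shares fell to between 11.7% (iAtoh1) and 37.2% (iGPA) for Atoh1, where genes of like length had 12.1% and 30.2%. For Pou4f3 they fell to between 18.1% (iP+A, like length 15.9%) and 39.4% (iGPA, 29.4 to 50.0). In iGPA the interval then lay above the like-length share of 26.9% and held the 33.3% of genes of like catchment. It held the like-length share in the other 8 lists.

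**Figure D1:**
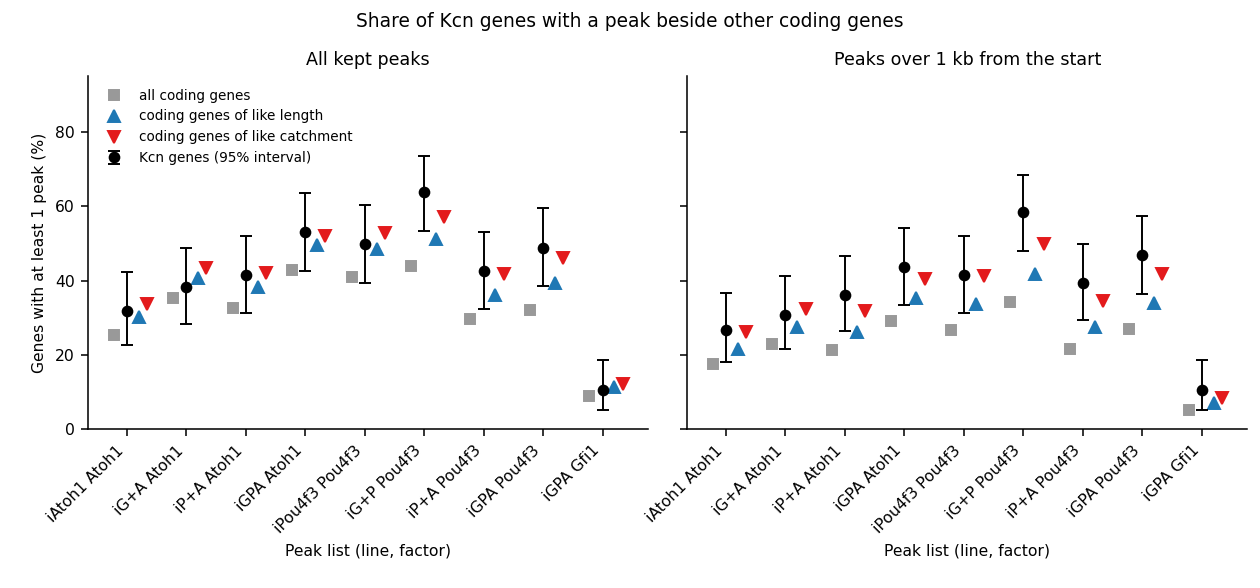
Percent of genes with at least 1 kept peak in each list (left, peaks at any distance; right, peaks over 1 kb from the start only). Points with bars are the 94 Kcn genes with 95% Clopper-Pearson intervals, and the other symbols are all coding genes, coding genes of like length and coding genes of like catchment. On the right the Kcn genes sit above genes of like length in 9 of 9 lists and within their interval of genes of like catchment in 9 of 9.

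The peaks of Kcn genes were seldom at promoters. A summit within 1 kb of any start was found for 8 Kcn genes in iAtoh1 (8.51%, against 14.0% of like length), 11 in iG+A (11.7% against 23.6%), 10 in iP+A (10.6% against 21.4%) and 19 in iGPA (20.2% against 29.6%). For Pou4f3 it was found for 15 in iPou4f3 (16.0% against 29.9%), 7 in iG+P (7.45% against 23.6%), 5 in iP+A (5.32% against 16.5%) and 5 in iGPA (5.32% against 11.6%). No Kcn gene had a Gfi1 summit there (0 of 94, upper limit of the exact interval 3.85%), against 5.52% of genes of like length. The Kcn share was below the like-length share in 9 of 9 lists, and its interval lay wholly below in 6.

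Away from promoters the order turned. With peaks over 1 kb from the start only, a split chosen after the values were seen, the Kcn share was above that of like length in 9 of 9 lists. In iG+P it was 58.5% (47.9 to 68.6) against 41.8%, in iGPA Pou4f3 46.8% (36.4 to 57.4) against 33.9%, in iP+A Pou4f3 39.4% (29.4 to 50.0) against 27.4% and in iP+A Atoh1 36.2% (26.5 to 46.7) against 26.2%. These were the 4 lists whose interval excluded the like-length share. None excluded the share of genes of like catchment, which was 49.8%, 41.8%, 34.6% and 31.9% in the same 4. The Kcn share was above that of like catchment in 8 of 9 lists, within its interval each time.

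The peaks themselves lay far out. Over the 9 lists 662 peaks fell to Kcn genes, with a median distance of 23.2 kb from the start, against 7.37 kb for peaks nearest to any coding gene. The list medians ran from 15.3 to 29.1 kb for Kcn genes and from 2.71 to 13.4 kb for all. Only 90 Kcn peaks (13.6%, 11.1 to 16.4) were within 1 kb, against 28.3%. By annotation 277 were in an intron of their Kcn gene, 15 in a coding exon, 39 in an untranslated exon and 331 outside the gene. Of the 662, 51 lay inside another coding gene, where the nearest start need not name the gene concerned.

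**Figure D2:**
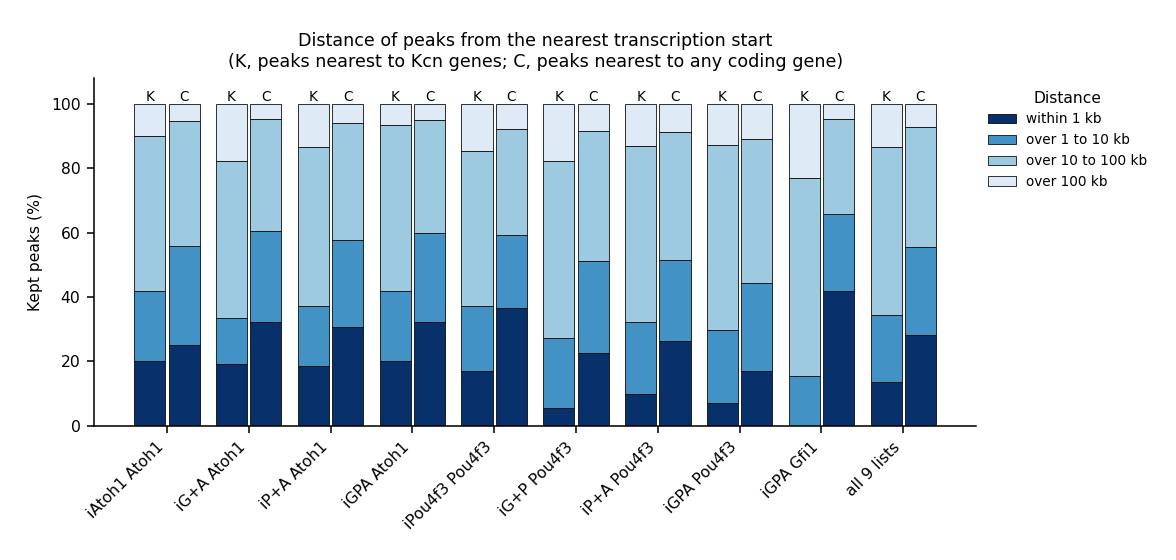
Percent of kept peaks by distance from the nearest transcription start, in stacked bars for each list and for all 9 together. Bars marked K are peaks nearest to Kcn genes and bars marked C peaks nearest to any coding gene. Over all lists 13.6% of the K bar and 28.3% of the C bar lie within 1 kb.

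Genes differed widely in the number of peaks. The range was 0 to 34 over the 9 lists, led by Kcnmb2 with 34 and Kcnn3 with 32. Kcnmb2 encodes a beta subunit that makes calcium-activated BK channels inactivate, and Kcnn3 a calcium-activated SK channel. Kcnmb1, another BK beta subunit, came next with 27, but it overlaps Kcnip1, all its peaks lie inside that gene, and the nearest start cannot tell them apart. The SK channel gene Kcnn2 had 22, Kcnip4 (an auxiliary subunit of voltage-gated channels) and Kcnma1 (the pore of BK channels) 20 each, and Kcnk9 (an acid-sensitive tandem-pore channel) 19. A site counts again in each list that holds it. The catchments of all these genes were above the Kcn median of 66.5 kb, from 74.6 kb (Kcnmb1) to 910.9 kb (Kcnip4).

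The 12 Kcn genes with no peak in any list were Kcnd1, Kcne1l, Kcne3, Kcnh4, Kcnj13, Kcnj14, Kcnj8, Kcnj9, Kcnk15, Kcnn1, Kcnrg and Kcns1. Their catchments were small, 8.10 to 58.7 kb with a median of 12.1 kb, against a median of 95.5 kb for Kcn genes with a peak.

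**Figure D3:**
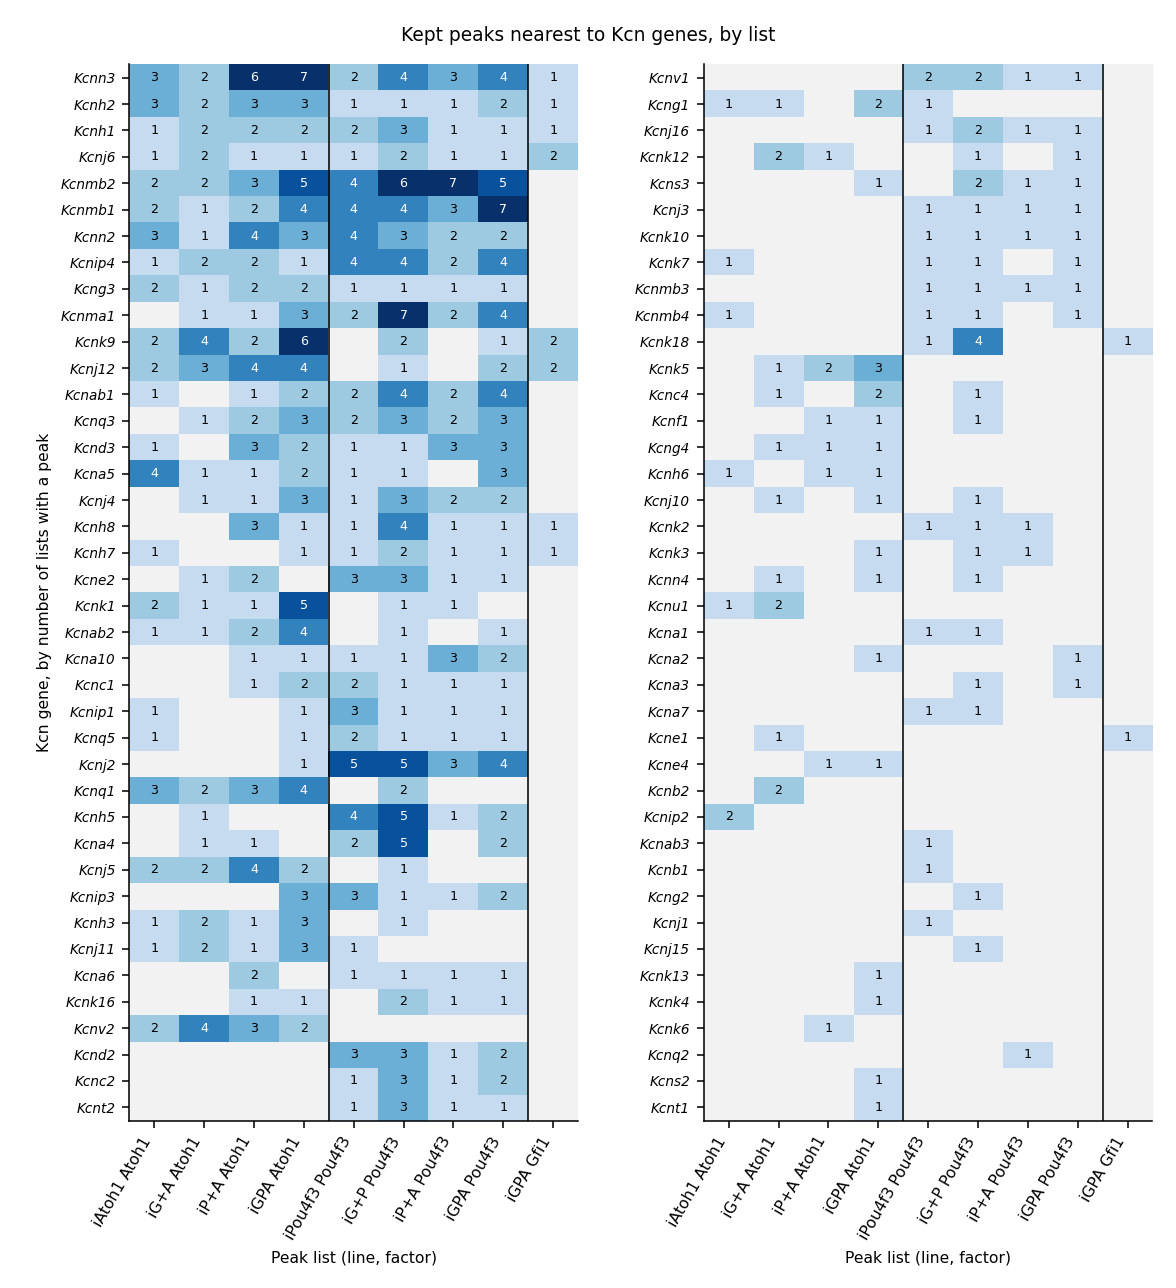
Number of kept peaks of the Kcn genes with a peak that are reported here (rows, ordered by the number of lists) in each of the 9 lists (columns, with lines between factors). Darker cells hold more peaks, up to 7, and empty cells hold none. The upper rows, from Kcnn3 to Kcng3, are filled in all Atoh1 and Pou4f3 columns.

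Peaks in all 9 lists were found for 4 Kcn genes (4.26%, 1.17 to 10.5), namely Kcnn3, Kcnh2, Kcnh1 and Kcnj6. The interval held the shares of all coding genes (2.48%), genes of like length (3.68%) and genes of like catchment (4.79%). Kcnh2 encodes the ERG channel of cardiac repolarisation, Kcnh1 a related voltage-gated channel and Kcnj6 a G protein-activated inward rectifier. The only iAtoh1 peak of Kcnh1 lay in a tandem repeat of a 6-base unit, 19.3 kb beyond an internal start. There Atoh1 had fold enrichment of 2.96, 5.04 and 2.62 (iAtoh1, iG+A, iP+A) and Pou4f3 of 5.02 in iG+P. Without peaks in such repeats, 3 Kcn genes remained in all 9 lists and Kcnh1 was in 8. Kcnmb2, Kcnmb1, Kcnn2, Kcnip4 and the silent subunit gene Kcng3 had peaks in all 8 Atoh1 and Pou4f3 lists and none in the Gfi1 list. In all, 9 Kcn genes were in these 8 lists (9.57%, against 7.07% of coding genes, 10.2% of like length and 13.1% of like catchment).

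All 4 Atoh1 lists named 19 Kcn genes (20.2%, against 16.6% of coding genes and 20.5% of like length). The highest in iGPA were Kcnj12 and Kcnj5 (both inward rectifiers), Kcnab2 (an auxiliary subunit), Kcnn3, Kcnmb1 and Kcnq1. All 4 Pou4f3 lists named 34 (36.2%, 26.5 to 46.7, against 20.3% and 26.3%). The lower bound lies just above the like-length share, and the interval holds the 32.2% of genes of like catchment. The highest of these in iGPA were Kcnn3, Kcnq3, Kcnmb2, Kcnh8, Kcnh2 and Kcnj16. Atoh1 and no Pou4f3 lists named 15 Kcn genes, against 13.2% of coding genes, and Pou4f3 and no Atoh1 lists named 19, against 14.8%. Of these Kcne1 and Kcnk18 also had a Gfi1 peak.

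Of 20 contrasts between the lists of a factor, counting genes with a peak in one list and none in another, the interval of the Kcn share held the like-length share in 19. The exception was Pou4f3 in iG+P and not in iPou4f3, with 18 Kcn genes (19.1%, 11.8 to 28.6, against 11.1% of coding genes, 11.2% of like length and 11.3% of like catchment). The lower bound lies just above these other shares. The iG+P list was also the longer, with 32632 kept peaks against 22433 in iPou4f3. The only iG+P peak of Kcnk1 lay in a tandem repeat. The contrast was not computed without such peaks or at equal list length. The genes came from several subunit classes. Tandem-pore genes were Kcnk1, Kcnk3, Kcnk9, Kcnk12 and Kcnk16, and inward rectifier genes were Kcnj5, Kcnj10, Kcnj12 and Kcnj15. The rest were voltage-gated, silent, auxiliary or calcium-activated. The share of all coding genes was also below the interval for Atoh1 in iGPA and not in iG+A, with 22 Kcn genes (23.4%, 15.3 to 33.3, against 14.1%, and 15.5% of like length). Atoh1 was near 24 Kcn genes in iGPA and not in iAtoh1 (25.5%, against 20.8% of coding genes and 23.0% of like length). The reverse held for 4, Kcnip2, Kcnk7, Kcnmb4 and Kcnu1, against 3.55%. For Pou4f3, 8 Kcn genes had a peak in iGPA and not in iPou4f3, against 5.35%, and 9 in iPou4f3 and not in iGPA, against 14.4%. Atoh1 was in both iP+A and iGPA, the lines with Pou4f3, and in neither iAtoh1 nor iG+A for 7 Kcn genes (7.45%, 3.05 to 14.7, against 4.21% of coding genes and 4.78% of like length). Among them were Kcna10, Kcnc1, Kcne4, Kcnf1, Kcnh8 and Kcnk16, and the interval includes both shares.

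Within these 7 genes the values differed in kind. The Kcnk16 site had fold enrichment of 10.0 and 23.3. Kcnk16 encodes a tandem-pore channel opened by alkaline pH and known from pancreatic islets. Kcne4, an auxiliary subunit gene, had 3.23 and 3.08 at a site 10.3 kb away, and the silent subunit gene Kcnf1 2.58 and 3.57 at 77.9 kb. In Kcnc1, a fast voltage-gated channel gene, and in Kcnh8 the iP+A and iGPA peaks were at different sites.

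The genes known from the inner ear differed in where they were bound and in which lines. Kcna10 was bound by Pou4f3 29.1 kb upstream in all 4 lists, with fold enrichment of 5.71, 4.16, 5.21 and 6.74 (iPou4f3, iG+P, iP+A, iGPA). At 6.35 kb upstream both factors had a peak, in the lines that make both: Atoh1 3.01 in iP+A and 3.57 in iGPA, Pou4f3 2.83 and 3.93. Neither iAtoh1, iG+A, iPou4f3 nor iG+P had a peak at this nearer site.

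Kcnma1, which spans 504.5 kb, had 20 peaks at 13 sites. Pou4f3 was in an intron at 84.8 kb in all 4 lists (3.80, 3.83, 3.17 and 5.24 in the order iPou4f3, iG+P, iP+A, iGPA). Further into the gene, 34.0 kb before an internal start, it had 2.85, 3.74 and 5.83 (iG+P, iP+A, iGPA), and none in iPou4f3. The strongest Atoh1 site, 6.28 at 32.8 kb upstream of the gene, was in the iGPA list only. Another site, 32.4 kb upstream and in 2 lists, was close by, but its windows did not touch that of this site. No Atoh1 peak of Kcnma1 was in iAtoh1.

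In Kcnn2 Atoh1 was 0.703 kb upstream of the gene in all 4 lists (3.54, 3.47, 4.52 and 4.31 in the order iAtoh1, iG+A, iP+A, iGPA). Pou4f3 was in an intron 6.06 kb beyond an internal start in all 4 (4.64, 4.27, 4.42 and 6.12 in the order iPou4f3, iG+P, iP+A, iGPA). Both sites recurred in every line that made the factor. Another site, 0.396 kb before an internal start, had Atoh1 in iAtoh1, iP+A and iGPA and Pou4f3 in iPou4f3.

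Of the genes of endolymph formation, Kcnq1 had the most peaks, 12 of Atoh1 and 2 of Pou4f3, and Kcne1 and Kcnj10 had few. Their catchments were 204.0 kb (Kcnq1), 39.6 kb (Kcne1) and 23.7 kb (Kcnj10). Kcnq1 had Atoh1 in an intron at 16.9 kb in all 4 lists, at 5.01, 5.74, 4.14 and 9.23 (iAtoh1, iG+A, iP+A, iGPA), and Pou4f3 only in iG+P (2.74 and 2.96 at separate sites). Kcne1 had a single site, 17.7 kb from its start, with Atoh1 in iG+A (2.94) and Gfi1 in iGPA (4.94). Kcnj10 had Atoh1 at 9.21 kb in an intron (3.87 in iG+A, 3.20 in iGPA) and 1 Pou4f3 peak at its start in iG+P (2.74).

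**Figure D4:**
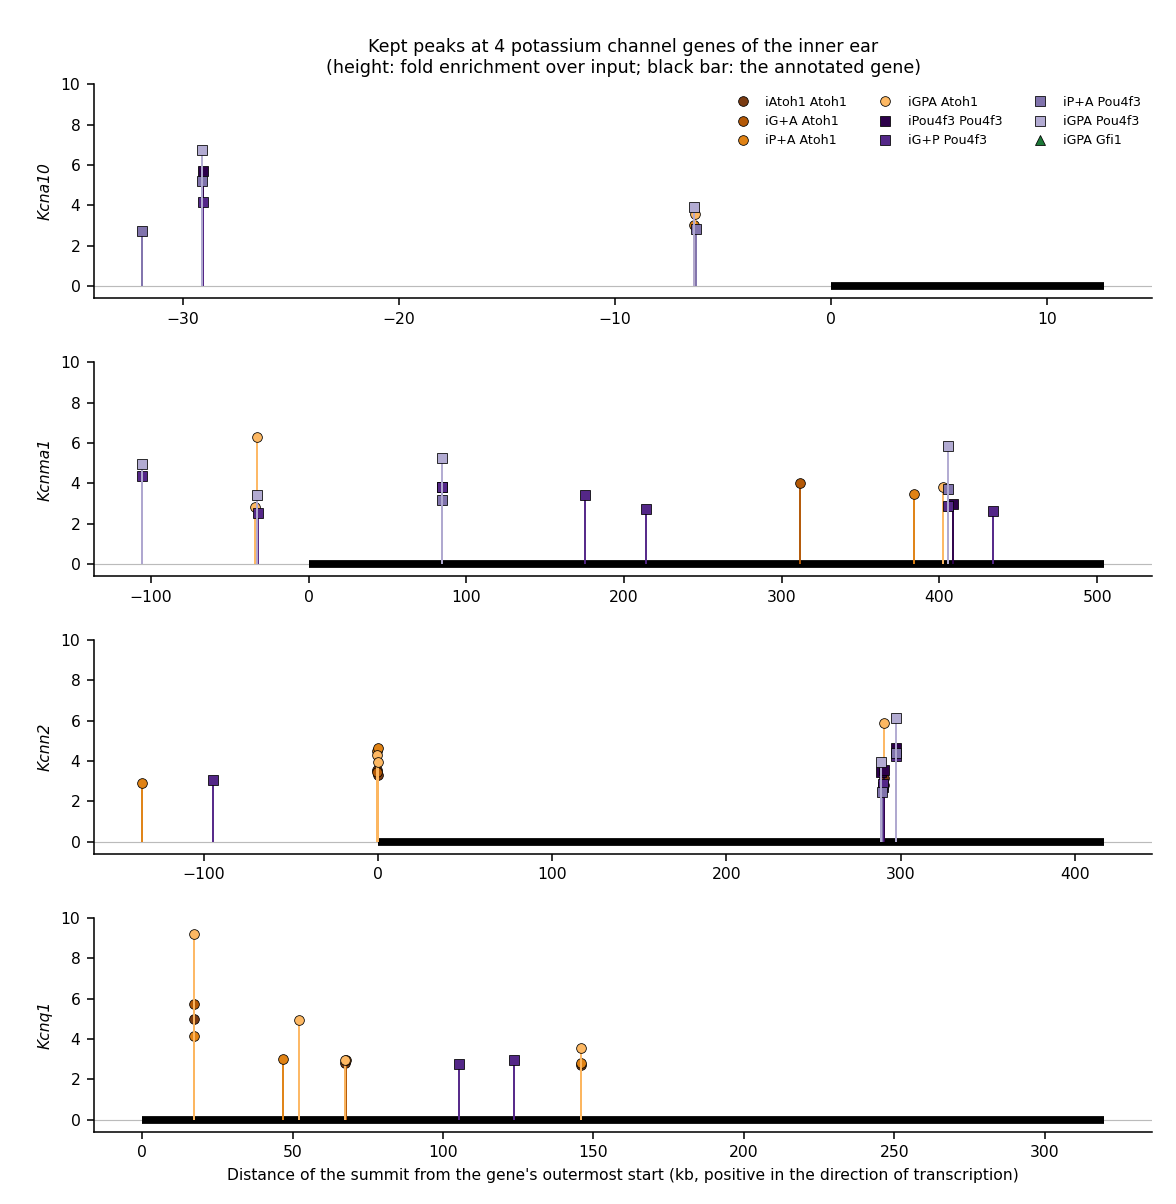
Peaks of Kcna10, Kcnma1, Kcnn2 and Kcnq1. The x axis is the distance from the outermost start of the gene in kb, positive in the direction of transcription (the text counts from the nearest of all starts), the height is fold enrichment, and the black bar is the annotated gene. Circles are Atoh1 and squares Pou4f3 peaks, coloured by line. In Kcnq1 the circles at the left reach 9.23, and in Kcna10 squares of 4 lists stand together 29.1 kb upstream.

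By subunit class, a peak in any list was found for 28 of 30 voltage-gated genes (against 79.2% of coding genes of like length), 14 of 16 auxiliary (75.6%), 11 of 15 inward rectifiers (75.0%), 13 of 14 tandem-pore (76.1%), 9 of 10 silent (66.5%) and 7 of 8 calcium- or sodium-activated (85.0%). The voltage-gated genes had the most peaks, 214, and the auxiliary genes 151. In iGPA, with classes in the order above, Atoh1 was near 53.3%, 50.0%, 46.7%, 50.0%, 70.0% and 62.5% of genes, against 42.8% of all coding genes. Pou4f3 was near 60.0%, 62.5%, 40.0%, 35.7%, 30.0% and 50.0%, against 32.1%. For single lists no like-length share was computed by class. Genes of like length to the whole Kcn group had 49.6% (Atoh1) and 39.3% (Pou4f3) in iGPA. The counts behind the class shares are small, and the differences between classes were not tested.

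Genes for other parts of potassium channel complexes and for the related Hcn channels had peaks in 8 of 13 cases, against 78.9% of like length. Dpp6, which joins voltage-gated channels as an auxiliary subunit, had 17 peaks and was in all 9 lists. The pacemaker genes Hcn3 and Hcn4 had 5 and 7, and Dpp10, Abcc8, Lrrc52 and Abcc9 had 5, 3, 3 and 2. Hcn2, Lrrc26, Lrrc38, Lrrc55 and Amigo1 had none. Of the sodium channel (Scn) genes 12 of 13 had a peak in some list, against 84.3% of like length, and of the calcium channel (Cacn) genes 25 of 26, against 86.2%. Both like-length shares lie within the intervals (64.0 to 99.8 and 80.4 to 99.9).

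Summits were joined into 1 site where their 300 bp windows touched, which gave 320 Kcn sites of 78408 in all. Of the 50 iAtoh1 Atoh1 sites at Kcn genes, 32 (64.0%, 49.2 to 77.1) also had Atoh1 in iGPA, against 54.3% over all sites. Of the 111 Atoh1 sites in iGPA, 28.8% (20.6 to 38.2) had been in iAtoh1, against 32.0%. Both intervals hold the share over all sites.

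At the 32 shared sites fold enrichment was higher in iGPA than in iAtoh1 at 28 (87.5%), with a median ratio of 1.35, against 73.2% and 1.25 over all shared sites. At the 49 sites shared by iPou4f3 and iGPA it was higher in iGPA at 37 (75.5%), with a median ratio of 1.26, against 73.4% and 1.19. The lists were not scaled to each other, and depth was not used here.

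Pou4f3 sites of Kcn genes recurred in iGPA more often than others did for 2 of 3 lists. Of the 61 in iP+A, 45 (73.8%, 60.9 to 84.2) had Pou4f3 in iGPA, against 54.6% over all sites, and of the 123 in iG+P, 65 (52.8%, 43.6 to 61.9), against 42.2%. For iPou4f3 the share was 59.0% (47.7 to 69.7), against 49.8%. The first 2 intervals lie above the share over all sites, and that of iPou4f3 holds it. With sites over 1 kb from the start only, the shares were 75.0% (61.6 to 85.6) against 59.5% for iP+A, 53.4% (44.0 to 62.8) against 44.9% for iG+P and 66.7% (54.3 to 77.6) against 59.7% for iPou4f3. The interval then lay above the overall share for iP+A and held it for the other two.

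Atoh1 and Pou4f3 met less often at Kcn sites when all lists were joined, and in iGPA no difference was detectable. Of the 320 sites, 31 (9.69%, 6.68 to 13.5) had both factors in any lists, against 18.2% over all sites. Since sites near starts are shared more often and Kcn sites are far out, the same was computed by distance. Over 1 kb it was 25 of 275 (9.09%, 5.97 to 13.1) against 15.8%, and within 1 kb 6 of 45 (13.3%, 5.05 to 26.8) against 27.4%. Within iP+A 10 of 73 Atoh1 sites had Pou4f3 (13.7%, 6.77 to 23.8) against 24.2%. Within iGPA it was 15 of 111 (13.5%, 7.77 to 21.3) against 16.0%, where the interval holds the overall share. Over 1 kb from the start it was 9 of 61 in iP+A (14.8%, 6.98 to 26.2) against 24.5%, and 14 of 88 in iGPA (15.9%, 8.98 to 25.2) against 16.9%, and both intervals hold the overall share.

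None of the 15 sites with both factors in iGPA had an Atoh1 peak in iAtoh1 (15 of 15 without, 78.2% to 100%), against 78.2% without over all such sites, and they belonged to 12 genes. Atoh1 was also in iP+A at 11 of the 15 and in iG+A at 1, that of Kcnj4, an inward rectifier gene. Pou4f3 was in iPou4f3 at 6, in iG+P at 8 and in iP+A at 10. Over all sites of this kind 58.7% had Atoh1 in iP+A and 12.2% in iG+A, both within the Kcn intervals (44.9 to 92.2 and 0.169 to 31.9).

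The strongest of them lay 24.6 kb from the start of Kcnk16 and was the highest Kcn peak in 4 lists. Atoh1 had fold enrichment of 10.0 in iP+A and 23.3 in iGPA, and Pou4f3 3.94, 10.6 and 34.1 (iG+P, iP+A, iGPA). There was no peak in iAtoh1, iG+A, iPou4f3 or the Gfi1 list. The site lies beyond the end of Kcnk16, and the next coding start, that of Nudt13, is 50.2 kb away. Its window, printed above, holds the pair of E-boxes to the left of the summit.

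At Kcnn3, 29.8 kb into the gene, Pou4f3 had 8.80, 14.3, 4.64 and 23.3 (iPou4f3, iG+P, iP+A, iGPA), Atoh1 4.41 in iP+A and 9.84 in iGPA, and Gfi1 5.81. It was the only Kcn site with all 3 factors in iGPA. An iAtoh1 Atoh1 peak 29.5 kb into the gene was close by, but its window did not touch those of this site. Kcnq3, a subunit of the M-current channel, had a site of the same kind 46.7 kb into the gene, with Atoh1 of 5.51 in iP+A and 5.66 in iGPA and Pou4f3 of 9.75, 8.98, 7.02 and 13.5 in the order iPou4f3, iG+P, iP+A, iGPA. At both sites Pou4f3 was present in each of its lists, and Atoh1 in both lines that also made Pou4f3.

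Other sites held 1 factor throughout. Kcnj5, a G protein-activated inward rectifier, had Atoh1 23.8 kb into the gene at 4.89, 9.75, 5.49 and 12.3 (iAtoh1, iG+A, iP+A, iGPA). Kcnk1, a weak tandem-pore leak channel, had Atoh1 35.5 kb upstream at 6.96, 8.94, 3.01 and 4.92 in the same order. Kcnh8, a voltage-gated channel gene, had Pou4f3 154.4 kb upstream at 10.8, 9.41, 5.55 and 15.9 (iPou4f3, iG+P, iP+A, iGPA). These were the highest Kcn peaks of the iG+A, iAtoh1 and iPou4f3 lists.

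Gfi1 had 13 sites at 10 Kcn genes. Of these 6 had Atoh1 in iGPA, against 45.2% over all Gfi1 sites, and 1 had Pou4f3, against 25.0%. The strongest was 22.4 kb upstream of Kcnk9, where Gfi1 had 11.7 and Atoh1 3.42, 6.14, 5.59 and 8.98 (iAtoh1, iG+A, iP+A, iGPA). Kcnh2 at 1.13 kb upstream had Gfi1 of 4.18 with Atoh1 in all 4 lists (5.25, 3.87, 6.24 and 7.14 in that order). With neither of the others in iGPA there were 7 of the 13 sites, against 1423 of 2991 over all Gfi1 sites. They were at Kcne1, Kcnh1, Kcnh7, Kcnh8, Kcnj12, Kcnj6 and Kcnk18. Those at Kcne1, Kcnh7 and Kcnk18 had Atoh1 or Pou4f3 peaks in other lines. The Kcnk18 window consists of repeated copies of a unit too long for the repeat search used here, so it was not called a tandem repeat.

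**Figure D5:**
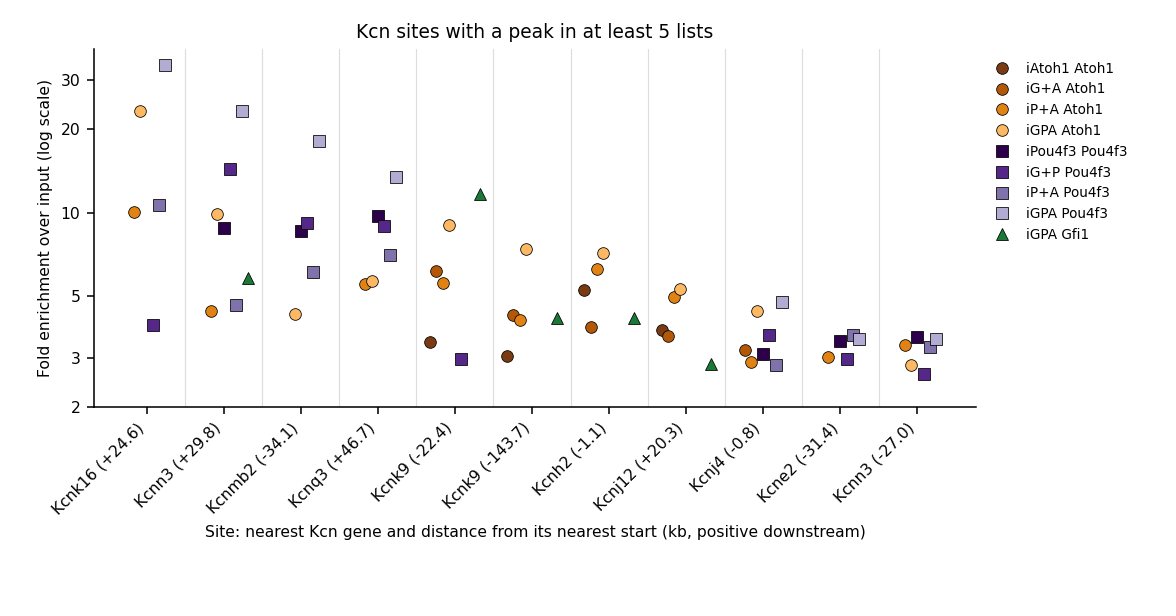
Fold enrichment (log axis) at the Kcn sites with a peak in at least 5 lists that are reported here, named by gene and distance from the nearest start in kb. Circles are Atoh1, squares Pou4f3 and triangles Gfi1, coloured by line. The iGPA Pou4f3 square of Kcnk16, at 34.1, is the highest point, and at the first 4 sites the iGPA Pou4f3 value stands above the other values of the site.

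The E-box was frequent under Atoh1 peaks of Kcn genes. In the 250 bp around the summit it was found in 34 of 50 in iAtoh1 (68.0%, 53.3 to 80.5), against 59.9% of all peaks of the list. The count was 45 of 57 in iG+A (78.9%, 66.1 to 88.6, against 63.0%), 59 of 75 in iP+A (78.7%, 67.7 to 87.3, against 63.7%) and 91 of 110 in iGPA (82.7%, 74.3 to 89.3, against 72.9%). Windows of equal length 1000 bp to each side held it in 24.7% to 29.5% of cases. The interval lay above the share of all peaks in 3 of 4 lists. Kcn genes had few promoter peaks, and with peaks over 1 kb from the start only the shares were 67.5%, 84.8%, 80.3% and 87.5%, against 58.4%, 66.4%, 65.5% and 77.0%.

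The first Pou4f pattern was found under 54.2% (42.9 to 65.2) of Kcn Pou4f3 peaks in iPou4f3, 51.2% (42.1 to 60.2) in iG+P, 48.4% (35.5 to 61.4) in iP+A and 57.5% (46.4 to 68.0) in iGPA. All peaks of these lists had 41.9%, 41.9%, 40.0% and 54.5%, and flanks of the Kcn peaks 9.64% to 11.6%. With peaks over 1 kb from the start only, the Kcn shares were 63.8% (51.3 to 75.0), 53.4% (44.0 to 62.6), 51.8% (38.0 to 65.3) and 59.3% (47.8 to 70.1), against 55.5%, 47.9%, 47.2% and 59.2%, and each interval held the share of all peaks. The second pattern, chosen after its letters were seen at the strongest Kcn sites, was under 32.5%, 25.6%, 29.0% and 27.6% of Kcn peaks, against 22.1%, 19.1%, 21.1% and 27.8% of all peaks. Some 9-base stretches match both patterns. A Gfi1 pattern was under 1 of 13 Gfi1 peaks (7.69%, against 7.01%), and an E-box under 9 (69.2%, 38.6 to 90.9, against 39.1% of all Gfi1 peaks). A match of letters is a description of the window and not a shown site.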

How the data were processed

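Peak lists of 9 combinations of line and factor were analysed. Groups came from the sample titles. Per the study's methods and the labels, the authors aligned reads to mm9 with Bowtie2, removed duplicates with Picard, merged the replicates of a group and called peaks with MACS2 against merged inputs. Names of further tools in the submitters' processing notes were FastQC, MultiQC, Trimmomatic, SAMtools, bedtools and deepTools.

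The deposited fold enrichment is a ratio of ChIP signal at the summit to local background, computed by the authors. The deposited −log10 p is that of the peak caller. The score column of the peak lists and the signal column of the summit lists, both deposited, were not used for any result. The deposited summit lists name the peaks the authors kept, 3012 to 32632 per list. Between 14.1% and 35.5% of called peaks were absent from them, by a filter not given in the sources used here. The lists hold no read counts, so the depth of the libraries is unknown here and limits the weak peaks of each list to an unknown degree.

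Each kept summit was given to the gene with the nearest of 86842 transcript starts in GENCODE vM1 (build NCBIM37, the same assembly as mm9). Gene records were joined by symbol, so 96 Kcn records became 94 genes and 22367 coding records 22225. Kcnh8 has 2 records, on opposite strands. Like length was computed in 10 bins of gene span and like catchment in 10 bins of catchment, over coding genes outside the Kcn group. Shares have exact Clopper-Pearson 95% intervals. Neighbouring sites are not independent. Sites joined 300 bp windows sharing at least 1 bp. Patterns were searched on both strands in 250 bp around summits and 1000 bp to each side. A tandem repeat was called where the summit's surroundings repeated a short unit. Longer units, such as that of the Kcnk18 Gfi1 site, were not searched for.

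No test was made, since the lists hold no replicates. The Kcn group, the gene lists and the rules were chosen with earlier results of these data known. Named genes were the 12 in most lists, an inner ear list, the highest peak of each list, and those in all lists of a factor or with Atoh1 only beside Pou4f3 (up to 12, otherwise the 6 highest in iGPA). Sequences were the highest site of each class. Other names were added after their values were seen. Some items that these rules name are not reported here. The alternatives were called peaks of every kind, peaks with −log10 p from 10 up, lists cut to equal length, starts of coding genes, a 100 kb limit, other bins, windows and patterns. Added after the data were seen were peaks and sites over 1 kb from the start, peaks outside tandem repeats and a second Pou4f pattern. The assignment was tested on simulated data. Tools were Python 3.11.15, numpy 2.4.6, pandas 2.3.3, scipy 1.17.1, pysam 0.24.0 and matplotlib 3.10.9.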

Additional observations from a re-analysis of the deposited data

Results flagged for a closer look

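Peaks that were called but left out of the authors' summit lists also fell to Kcn genes. No reported share or count uses them, apart from the alternative with all called peaks. They numbered 9 in the iAtoh1, 12 in the iG+A, 11 in the iP+A and 6 in the iGPA Atoh1 list. The Pou4f3 lists had 9 (iPou4f3), 7 (iG+P) and 9 (iP+A). That of iGPA had 4. The Gfi1 list had 2. These were 0.0862% to 0.242% of the left-out peaks of each list, whereas 0.278% to 0.464% of kept peaks fell to Kcn genes. The highest was 6.96 at Kcnh8 in iG+P, followed by 4.96 at Kcnj5 in iP+A Pou4f3 and 4.69 at Kcnj5 in iAtoh1. In the iPou4f3 list the left-out peaks would have added 5 Kcn genes, among them Kcnj5, Kcnj8, Kcnk1 and Kcnq1, of which Kcnj8 has no kept peak in any list. Kcnv1, a silent subunit gene with kept peaks in Pou4f3 lists only, had a left-out peak in each of the 4 Atoh1 lists. No control precipitation was used here, so these counts were set against 0, and why the peaks were left out was not tested.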

How the results depend on the processing

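No paired analysis was possible because the lists were made from merged replicates, and leaving out a replicate could not be run for the same reason. Of 240 alternative values 186 stayed within the limit set for them (the interval of the reported share, or 1.5 times a count). None of the alternatives with all called peaks, windows of 100 or 1000 bp, full peak intervals, a 100 kb limit, 20 bins, catchment bins or peaks outside repeats moved a value past its limit. The contrasts between the lists of a factor were not among these values.

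With only peaks of −log10 p 10 or more, the Kcn shares in the order of the lists were 11.7%, 22.3%, 23.4% and 37.2% for Atoh1 and 31.9%, 33.0% and 18.1% for Pou4f3, with iGPA (39.4%) within the limit. Kcn peaks then numbered 13, 25, 30, 63, 39, 38, 18, 54 and, for Gfi1, 5, and like-length shares were 12.1%, 17.6%, 18.5%, 30.2%, 27.2%, 25.0%, 15.9%, 26.9% and 5.33%. Of the iAtoh1 sites 92.3% then had Atoh1 in iGPA, and of the iGPA sites 19.0% in iAtoh1. At equal list length the iGPA Atoh1 share was 39.4% (like length 37.0%) and that of iG+P 40.4% (33.2%), with 54 peaks. With starts of coding genes only, Atoh1 shares were 52.1% in iP+A and 64.9% in iGPA, and Pou4f3 peaks numbered 133, 198, 100 and 134. With peaks over 1 kb away, like-length shares were 27.6%, 26.2% and 35.2% for Atoh1 in iG+A, iP+A and iGPA and 33.9% in iPou4f3. The longer AtEAM pattern was under 20.0%, 21.1%, 18.7% and 21.8% of Kcn Atoh1 peaks. The Pou4f pattern without a mismatch was under 7.23%, 8.00%, 4.84% and 6.90% of Pou4f3 peaks, and the second pattern under 32.5%, 25.6%, 29.0% and 27.6%. Stricter and shorter lists hold fewer peaks by construction. The other causes were not tested.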
